A study of Mus musculus with 56 samples.

Results

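The heart reads sympathetic and parasympathetic nerve signals through a small set of receptors and the enzymes that make and break down cyclic AMP (cAMP). A group of 7 genes of this machinery was followed in mouse heart under daytime- and nighttime-restricted feeding, out of 22864 genes listed and 13893 genes tested. The members were chosen by name, with earlier results of these data known: Adrb1, Adra1a, Adra1b, Adcy5, Adcy6, Pde4d and Chrm2. They go by the name of beta-adrenergic signalling, but only Adrb1 encodes a beta receptor. Adra1a and Adra1b encode alpha-1 adrenergic receptors and Chrm2 encodes a muscarinic acetylcholine receptor. All 7 passed the filter on low values, and none had a library at 0 reads.

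Hearts came from female C57BL/6J mice, an inbred strain, at 9 weeks of age, housed with lights on for 12 h and off for 12 h. Food was given for 7 days only in the light phase (daytime-restricted feeding, DRF) or only in the dark phase (nighttime-restricted feeding, NRF, the reference, since mice are night feeders). All mice had free access to food before that, and no transgene or drug is named in the labels. Hearts were taken at zeitgeber time (ZT, hours after lights on) 0, 4, 8, 12, 16, 20 and 24, with 4 libraries for each regimen and ZT, 56 in all. The labels do not say whether a library came from 1 animal or which chambers of the heart it holds, so p-values measure the spread between these libraries.

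Noradrenaline and adrenaline act on the beta-1 receptor, which works through the stimulatory G protein to raise adenylyl cyclase activity. Cyclase isoforms 5 and 6 are the major ones of heart muscle cells. The cAMP they make activates protein kinase A, which speeds and strengthens the beat, and phosphodiesterases such as Pde4d break it down again close to the receptor. The muscarinic M2 receptor, the product of Chrm2, works through the inhibitory G protein to lower cAMP and to open an acetylcholine-gated potassium channel. Alpha-1 receptors use the Gq protein and phospholipase C, a branch that does not depend on cAMP.

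Libraries held 29.3 to 53.0 M recovered reads (median 37.4 M). Values are TPM, reads per exon length scaled to the same total in every library. For most genes this length covers all annotated transcripts (12006 bases over 20 for Pde4d). The order of levels between genes depends on it. Defining markers of heart muscle cells were present throughout, with a summed level of 7 markers between 25636 and 40165 TPM. Markers of the atria, the upper chambers, varied widely between libraries. Their summed level ran from 141 to 4504 TPM under NRF and from 102 to 5584 TPM under DRF, with Bmp10 at 0 reads in libraries of both regimens and Sln in 1 DRF library. In 2 libraries the profile went against the label. Over 1090 genes with a different rhythm between regimens, the members left out, DRF ZT4 replicate 1 correlated at -0.20 with the other libraries of its own group and at 0.82 with the NRF ZT8 group. NRF ZT8 replicate 1 correlated at -0.14 with its own group and at 0.72 with the DRF ZT4 group. The other 54 libraries correlated with their own group at 0.50 or more, though NRF ZT4 replicate 3 was slightly nearer to the DRF ZT24 group (0.655) than to its own (0.628). The labels were kept, and calls of the 7 genes that changed without these 2 libraries are given both ways. Group means, comparisons of group means by light and food, and tests with a free mean at each ZT include them.

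The clearest contrast among the 7 genes lay between the alpha-1 receptor genes. Adra1a peaked at ZT10 under NRF and at ZT20.4 under DRF, so that its time course turned over with the feeding time. Adra1b peaked at ZT3.74 under NRF and ZT2.88 under DRF and so kept its place relative to light. The other 5 genes varied less over the day. Of these Adcy6 alone passed the 24-h cosine test of rhythm, under NRF, and this depended on the settings given below.

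**Figure D1:**
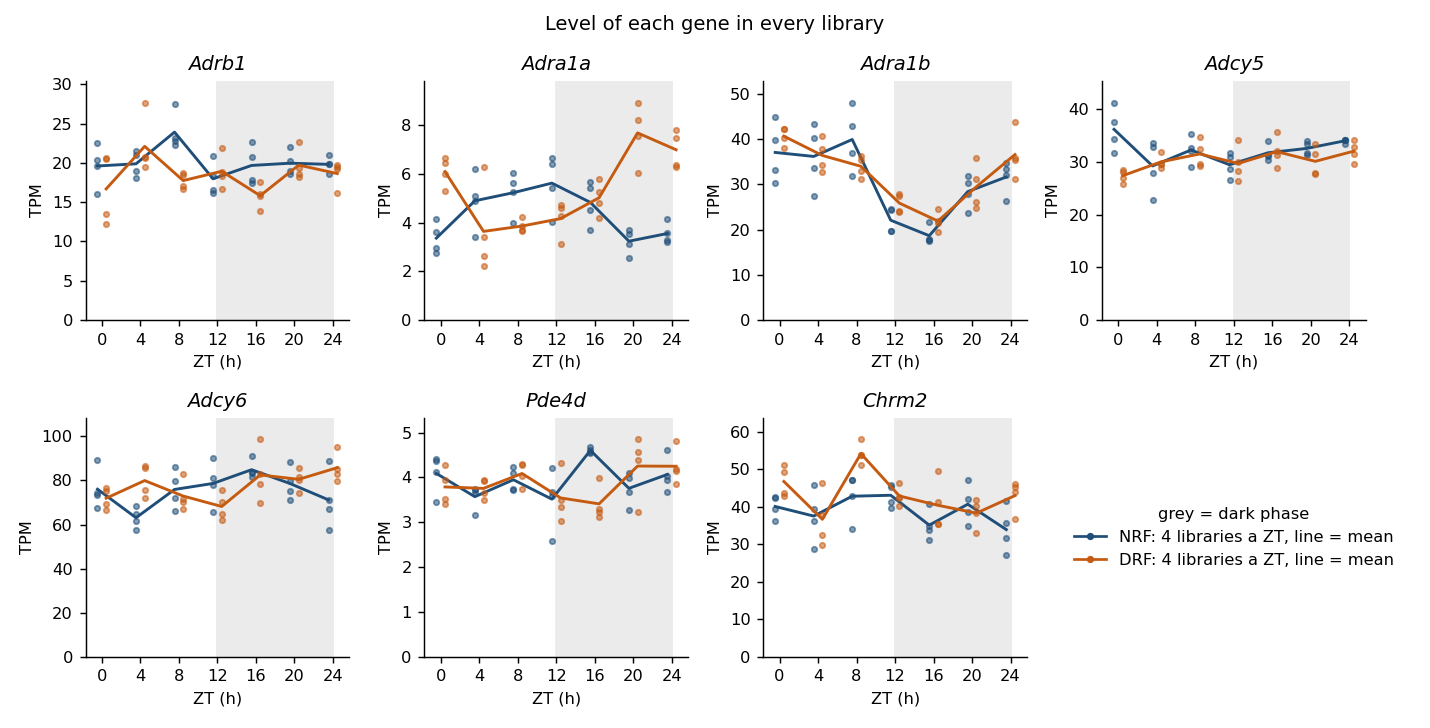
TPM of each of the 7 genes (y axis, from 0) against ZT in hours (x axis), with 1 point per library, 4 per regimen and ZT, and lines through the means. The grey band is the dark phase. The Adra1a lines cross, with DRF above NRF at ZT0, ZT20 and ZT24 and slightly above at ZT16 (5.02 against 4.83 TPM). The Adra1b lines run together, down to 18.7 TPM under NRF and 21.9 TPM under DRF at ZT16.

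Rhythm was tested by a limma F test of a 24-h cosine curve in the 28 libraries of each regimen, with p-values adjusted over all genes tested by the Benjamini-Hochberg method and a threshold of 0.05. Under NRF 3 of the 7 genes were called rhythmic (Adra1a, Adra1b and Adcy6), where 37.2% of all genes tested were called. Under DRF 2 of the 7 were called (Adra1a and Adra1b), where 32.2% of all genes were. A difference in rhythm between the regimens, lined up by light, was called in 2 members (Adra1a and Adcy6), against 27.5% of all genes. The counterpart test moved the NRF clock by 12 h, so that the phases with food were lined up instead, and it called 2 members (Adra1b and Adcy6), against 41.3% of all genes. These shares are near the background and give no result about the group as a whole. The 7 genes did not move as a block, and Pearson correlations between pairs of them over the 14 group means ran from -0.47 (Adra1a with Adcy5) to 0.41 (Adcy6 with Pde4d).

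By level, Adcy6 stood highest with a mean of 76.4 TPM and was above Chrm2 (41.1 TPM) in all 56 libraries. Adra1b and Adcy5, at 31.4 and 31.3 TPM, could not be ordered, since Adra1b was the higher in 27 of 56 libraries. Adrb1 followed at 19.3 TPM, above Adra1a in all 56 libraries. Adra1a (4.87 TPM) and Pde4d (3.90 TPM) were the lowest, and Adra1a was above Pde4d in 34 libraries.

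**Figure D2:**
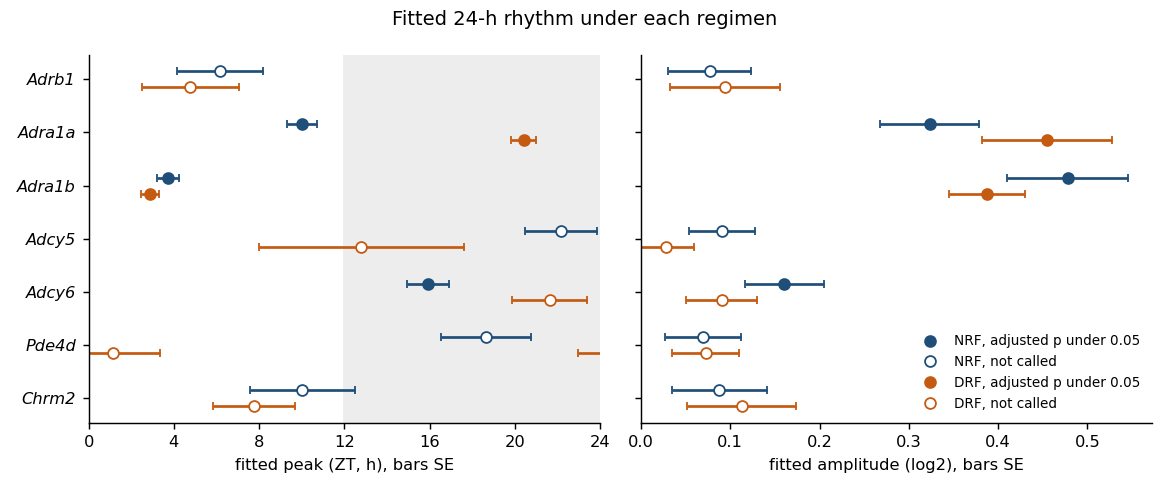
Fitted peak time in ZT hours (left) and fitted amplitude in log2 units (right) of the 7 genes under NRF (blue) and DRF (orange). Filled points have an adjusted p under 0.05 for rhythm and bars are standard errors. The Adra1a points lie 10.4 h apart, those of Adra1b 0.857 h apart, and the open points have wide bars.

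Adrb1 (ENSMUSG00000035283, chromosome 19, 56722199 to 56733113, plus strand, GRCm38) encodes the beta-1 receptor, the main target of noradrenaline on heart muscle cells. It was at 20.1 ± 2.49 TPM under NRF and 18.5 ± 3.04 TPM under DRF (SD, n = 28 each), resting on 440 to 1221 reads per library. No rhythm was called under NRF (adjusted p = 0.375) or DRF (0.441), and the fitted amplitudes were 0.08 and 0.09 on the log2 scale. Its lowest adjusted p at a single ZT came at ZT8. There the NRF libraries held 23.1, 22.3, 22.8 and 27.5 TPM and the DRF libraries 16.6, 17.1, 18.8 and 18.5 TPM. Every NRF library was above every DRF library, but the log2 difference of -0.41 (SE 0.12) did not pass adjustment (adjusted p = 0.0972). It passed with limma-voom on the recovered reads (-0.40, adjusted p = 0.0481) and without the 2 libraries at odds with their labels (-0.42, adjusted p = 0.0438). The mean level over the day differed by -0.13 (log2, DRF minus NRF, SE 0.05, adjusted p = 0.0622), which did not pass, and by -0.14 (adjusted p = 0.0308) without those libraries. It was also called with the atrial markers as a covariate (-0.14, adjusted p = 0.0417) and without replicate 4 (0.0372), ZT4 (0.0116) or ZT12 (-0.21, adjusted p = 0.0120). When libraries were scaled by median ratios to a common reference instead (called rescaling below), the Adrb1 mean difference was -0.07 and was not called. The exon length that gave whole reads for this gene was 2491 bases, not the 3382 annotated, so its TPM and its rank depend on a length found from the data.

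Promoter windows of 250 bases before to 50 after the start, from RefSeq on GRCm38.p6, were at hand for 5 of the 7 genes, with 6 windows in all. Clock and cAMP motifs were searched on both strands. The E-box CACGTG, the cAMP response element TGACGTCA, the ROR element TAGGTCA and the D-box TTATGTAA were in 0 of the 6 windows and in 7.15%, 1.79%, 2.61% and 0.938% of all 32851 windows. The TGACG core, which is contained in the full cAMP response element, was in the Adrb1 window alone, against 20.8% of all windows. It is shown because it is the only match, 90 bases before the RefSeq start, at chr19:56722015-56722043 on the plus strand, with the core in capitals.
Adrb1: gctgcgggagccTGACGcgcggccccggg

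Adra1a (ENSMUSG00000045875, chromosome 14, 66635251 to 66771168, plus strand) encodes the alpha-1A receptor. Under NRF its group means ran from 3.24 ± 0.509 TPM at ZT20 to 5.62 ± 1.20 TPM at ZT12 (SD, n = 4). Under DRF they ran from 3.64 ± 1.82 TPM at ZT4 to 7.68 ± 1.23 TPM at ZT20 (SD, n = 4). The rhythm was called under NRF (amplitude 0.32, SE 0.06, adjusted p = 0.000203) and under DRF (amplitude 0.45, SE 0.07, adjusted p = 0.000109). For comparison, the median amplitude of all rhythmic genes was 0.18 under NRF and 0.16 under DRF. The peaks differed by 10.4 h (SE 0.916, 95% interval 8.63 to 12.2 h), an interval that includes 12 h. The 2 time courses differed when lined up by light (adjusted p = 5.71e-08) and were not shown to differ when lined up by food (adjusted p = 0.211). With a 12-h harmonic added to the curve the latter test did pass (adjusted p = 0.0199), and in the other 20 alternatives it did not (adjusted p of up to 0.572). Taking food to begin at lights on under DRF and at lights off under NRF, Adra1a peaked 3.58 h before the phase with food under DRF and 2 h before it under NRF.

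The libraries behind the Adra1a difference separated fully at 3 ZTs. At ZT20 the DRF libraries held 8.22, 6.04, 7.55 and 8.92 TPM and the NRF libraries 3.71, 2.57, 3.54 and 3.13 TPM. Every DRF library was well above every NRF library, and the log2 difference was 1.03 (SE 0.16, adjusted p = 4.03e-05). At ZT24 the DRF libraries held 6.37, 7.48, 6.28 and 7.81 TPM and the NRF libraries 3.57, 4.15, 3.30 and 3.20 TPM. The groups again did not overlap, with a difference of 0.81 (SE 0.16, adjusted p = 0.00110). The ZT0 libraries, the same clock time a day earlier, held 6.44, 6.66, 5.28 and 5.99 TPM under DRF and 3.61, 2.77, 2.94 and 4.14 TPM under NRF. This difference was 0.71 (SE 0.16, adjusted p = 0.00275), and the ZT24 and ZT0 values did not differ beyond their spread in either regimen (adjusted p = 0.717 under DRF and 0.918 under NRF). Leaving out any single library of these groups kept all 3 calls, with adjusted p of at most 0.0152.

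At ZT4, ZT8 and ZT12 the differences had the other sign. The ZT12 difference was -0.35 (SE 0.16, adjusted p = 0.182). At ZT4 the DRF libraries held 6.27, 2.63, 3.42 and 2.24 TPM and the NRF libraries 3.40, 4.90, 6.19 and 5.08 TPM. The first DRF value belongs to the library whose profile resembled NRF ZT8, and with it the difference of -0.40 (SE 0.16) was not called (adjusted p = 0.302). Without both libraries at odds with their labels it was -0.64 (SE 0.15, adjusted p = 0.00660). At ZT8 the difference was -0.35 with all libraries (adjusted p = 0.317) and -0.45 without them (adjusted p = 0.0658). Leaving them out moved the Adra1a peaks little, to ZT9.80 under NRF and ZT20.2 under DRF, 10.4 h apart (SE 0.810 h).

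Adra1b (ENSMUSG00000050541, chromosome 11, 43774606 to 43901210, minus strand) encodes the alpha-1B receptor and was the more abundant of the pair, at 30.6 ± 8.75 TPM under NRF and 32.1 ± 6.98 TPM under DRF (SD, n = 28 each). It had the largest fitted amplitude of the 7 genes under NRF (0.48, SE 0.07, adjusted p = 1.37e-05) and was also rhythmic under DRF (0.39, SE 0.04, adjusted p = 5.99e-07). Its trough fell at ZT16 in both regimens. The NRF libraries held 17.7, 17.5, 17.9 and 21.6 TPM there and the DRF libraries 24.6, 19.4, 21.6 and 22.0 TPM. At ZT0 the values were 33.3, 30.3, 44.8 and 39.9 TPM under NRF and 42.2, 40.2, 38.1 and 42.2 TPM under DRF, above every ZT16 library of the same regimen. The peak moved by -0.857 h (SE 0.668, 95% interval -2.17 to 0.453 h), which includes no shift, and the rhythms were not shown to differ by light (adjusted p = 0.456). Lined up by food they differed (adjusted p = 8.97e-12). No ZT showed a difference between regimens in Adra1b, with adjusted p of 0.280 or more.

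**Figure D3:**
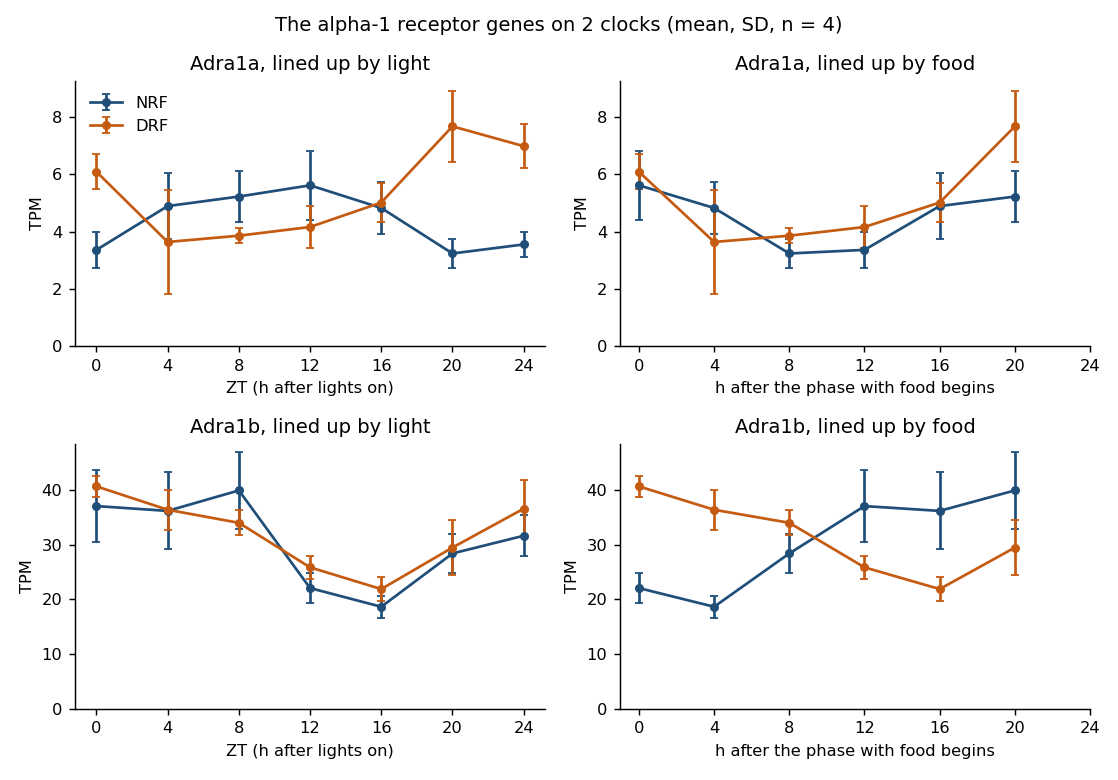
Mean TPM (y axis, from 0) with SD bars (n = 4) of Adra1a (top) and Adra1b (bottom) under NRF and DRF, against ZT (left) or hours after the start of the phase with food (right, ZT24 left out). The Adra1a curves come together on the food clock and the Adra1b curves on the light clock.

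The same contrast appeared in group means without a fitted curve. After each regimen's mean was removed, the root mean square difference between DRF and NRF over 6 pairs of ZTs was 0.56 log2 units for Adra1a by light and 0.26 by food. For Adra1b it was 0.15 by light and 0.65 by food. For the other 5 genes both values lay between 0.12 and 0.20. The ratio of Adra1a to Adra1b within a library, both in TPM, was 0.262 ± 0.0346 at ZT20 under DRF and 0.117 ± 0.0328 under NRF (SD, n = 4), and these libraries did not overlap. At ZT12 it was 0.163 ± 0.0389 under DRF and 0.256 ± 0.0586 under NRF (SD, n = 4).

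Adcy5 (ENSMUSG00000022840, chromosome 16, 35154877 to 35305738, plus strand) encodes adenylyl cyclase 5 and was at 32.2 ± 3.44 TPM under NRF and 30.4 ± 2.62 TPM under DRF (SD, n = 28 each). It was the steadiest of the 7 genes, with a median coefficient of variation within groups of 7.98%. It was not called rhythmic under NRF (adjusted p = 0.128) or DRF (0.749). A difference between regimens was called at ZT0 alone. The NRF libraries held 37.6, 31.7, 41.2 and 34.3 TPM there and the DRF libraries 28.5, 25.9, 28.2 and 27.0 TPM. All NRF values lay above all DRF values, with a log2 difference of -0.38 (SE 0.09, adjusted p = 0.00196). At ZT24, the same clock time, the NRF libraries held 33.5, 34.2, 34.2 and 34.2 TPM and the DRF libraries 29.7, 31.5, 32.9 and 34.2 TPM, a difference of -0.09 (adjusted p = 0.575) that did not repeat the call. The call depended on neither scaling nor any 1 library (adjusted p of at most 0.0211), whereas the rhythm of Adcy5 under NRF passed in 6 of 23 alternatives, with rescaling among them (adjusted p = 0.00367). The difference in rhythm between regimens, not called for Adcy5 (adjusted p = 0.167), was called after rescaling (0.0170) and with limma-voom on the recovered reads (0.0290).

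Adcy6 (ENSMUSG00000022994, chromosome 15, 98589973 to 98610076, minus strand) encodes adenylyl cyclase 6 and was at 75.5 ± 10.01 TPM under NRF and 77.4 ± 8.82 TPM under DRF (SD, n = 28 each). Under NRF it was called rhythmic with a small amplitude of 0.16 (SE 0.04) and a peak at ZT15.9 (SE 0.992 h, adjusted p = 0.0159). Under DRF the amplitude was 0.09 (SE 0.04) and the rhythm was not called (adjusted p = 0.173). The difference in rhythm passed narrowly by light (adjusted p = 0.0454) and by food (0.0401), so neither clock lined up its curves, and the peaks were 5.71 h apart (SE 2.01 h). These calls were fragile. The rhythm under NRF was lost in 6 of 23 alternatives (adjusted p of up to 0.203), and with a free mean at each ZT it was lost under NRF (0.0843) and called under DRF (0.0445). The difference by food was lost in 8 of 22. The difference by light was lost in 13 of 23 alternatives, among them rescaling (adjusted p = 0.154), and kept in 31 of the 56 fits that left out 1 library (adjusted p of 0.0131 to 0.0862). The groups did not overlap at ZT4, with 57.4, 61.7, 64.7 and 68.5 TPM under NRF and 75.6, 72.1, 86.5 and 85.6 TPM under DRF. This difference of 0.34 (SE 0.10) did not pass adjustment with all libraries (adjusted p = 0.138) or without those at odds with their labels (0.36, adjusted p = 0.0561). Adcy6 shares 605 exon bases with Gm29331 on the opposite strand, and without a stated use of strand the reads of the pair cannot be told apart. The ratio of Adcy5 to Adcy6 ran from 0.374 to 0.490 in the 14 group means and from 0.337 to 0.594 in single libraries.

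Pde4d (ENSMUSG00000021699, chromosome 13, 108449948 to 109953461, plus strand) encodes a cAMP phosphodiesterase and is a long gene with 20 annotated transcripts, which the counts do not separate. It was at 3.94 ± 0.494 TPM under NRF and 3.87 ± 0.506 TPM under DRF (SD, n = 28 each), with no rhythm called in either (adjusted p = 0.394 and 0.283). At ZT16 it was lower under DRF. The NRF libraries held 4.67, 4.58, 4.62 and 4.55 TPM and the DRF libraries 4.0, 3.22, 3.30 and 3.12 TPM. The groups did not overlap, and the difference was -0.35 (SE 0.09, adjusted p = 0.0166). The NRF values at this ZT lay unusually close together, and the call was lost without DRF ZT16 replicate 4 (adjusted p = 0.0981), after rescaling (0.0566) and with the values as deposited (0.0732). The median over all genes at ZT16 was itself -0.10.

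Chrm2 (ENSMUSG00000045613, chromosome 6, 36388084 to 36528414, plus strand) encodes the M2 receptor, through which the vagus nerve slows the heart. It was the only member with a different mean level over the day, at 39.0 ± 5.69 TPM under NRF and 43.2 ± 6.98 TPM under DRF (SD, n = 28 each). The mean log2 values differed by 0.14 (SE 0.05, adjusted p = 0.0461), and after rescaling Adra1a and Adra1b were called as higher too. Of all genes 26.0% were called in this test and 1.67% were called as higher under DRF, where the median over all genes was -0.05. The call was lost with the atrial markers as a covariate, where the difference was 0.11 (adjusted p = 0.131), and without the 2 libraries at odds with their labels, where it was 0.10 (adjusted p = 0.104). It was lost in 8 further alternatives, with the smallest difference, 0.05, without replicate 1 (adjusted p = 0.519), and it was kept in 29 of the 56 fits that left out 1 library (adjusted p of 0.0221 to 0.0778). Summed atrial markers averaged 1286 ± 1295 TPM under NRF and 2080 ± 1584 TPM under DRF (SD, n = 28 each). Chrm2 is known to be richer in atria than in ventricles, and the part of atrial tissue in this difference was not tested further. More generally, in a bulk sample fewer cells of a type and less RNA per cell cannot be told apart.

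Over the day Chrm2 was not called rhythmic (adjusted p = 0.375 under NRF and 0.307 under DRF). Its highest group was DRF ZT8, with 53.8, 51.0, 57.9 and 53.8 TPM. The NRF libraries of that ZT held 34.1, 47.2, 47.1 and 42.8 TPM, all lower, but the difference of 0.34 (SE 0.12) did not pass (adjusted p = 0.188). The lowest of these, replicate 1, is the NRF library at odds with its label, and without both such libraries the difference was 0.24 (adjusted p = 0.236). A test that lets every ZT have its own mean did call variation over the day under DRF (adjusted p = 0.00687). The 24-h cosine test under DRF passed when ZT4 was left out (adjusted p = 0.00115). Chrm2 shares 142 exon bases with 9330158H04Rik on the opposite strand.

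Across single ZTs, 5 of the 49 contrasts of the 7 genes were called, and they belonged to 3 genes. At ZT0 2 members were called (Adra1a higher and Adcy5 lower under DRF), where 11.5% of all genes were. At ZT4 and ZT8 no member was called by limma, where 0.446% and 0.353% of all genes were. At an unadjusted p under 0.05 they held 2 and 3 of the 7 members, against 12.0% and 14.6% of all genes. At ZT12 no member was called, against 7.64% of all genes, and 1 member had an unadjusted p under 0.05, against 23.1% of all genes. At ZT16 1 member was called (Pde4d, 6.87% of all genes), at ZT20 1 (Adra1a, 14.8%) and at ZT24 1 (Adra1a, 8.83%). ZT24 and ZT0 were not called as different in any member under DRF (0.425% of all genes) or NRF (0.0576%). Without the libraries at odds with their labels 8 contrasts were called, the additional ones being Adra1a at ZT4, Adrb1 at ZT8 and Chrm2 at ZT24 (adjusted p = 0.0428). Over all genes 3.45% were then called at ZT4 and 3.60% at ZT8.

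**Figure D4:**
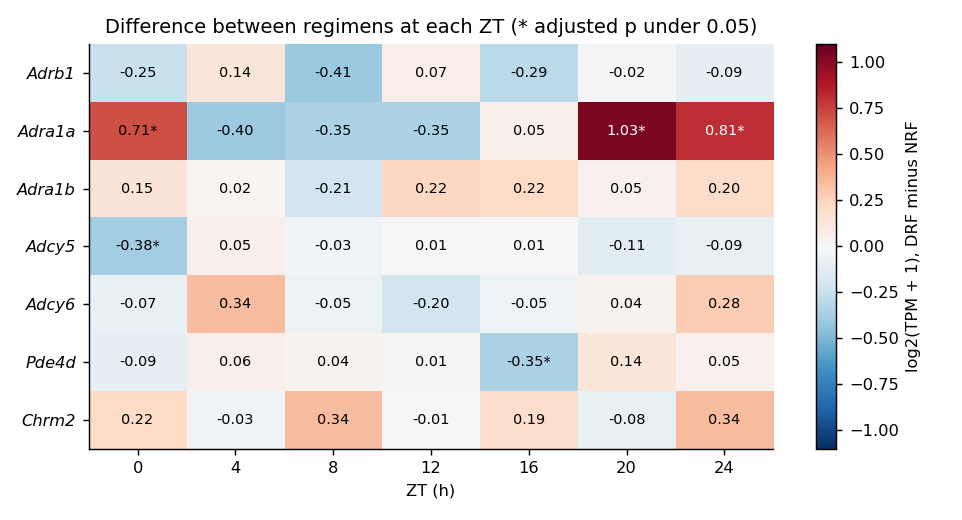
Difference between DRF and NRF on the log2(TPM + 1) scale for each gene (rows) and ZT (columns). Red is higher and blue lower under DRF, and a star marks an adjusted p under 0.05. Adra1a holds 3 of the 5 stars, at ZT0, ZT20 and ZT24, with values of 0.71 to 1.03.

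The genes around the 7 members were taken in 9 lists, of which 107 genes were tested. Of these, 44 (41.1%) passed the rhythm test in NRF and 42 (39.3%) in DRF. The rhythm of 29 (27.1%) differed between regimens. These shares were close to the shares over all genes. A different mean level was called in 40 (37.4%), against 26.0% of all genes, and the gap between these shares was not tested. Of the 107 genes 37 (34.6%) were lower and 3 (2.80%) higher under DRF, where 24.3% of all genes were lower and 1.67% higher. After rescaling 10 (9.35%) were lower and 11 (10.3%) higher, against 7.51% and 5.52% of all genes. The lead of lower genes was then gone. The median difference over the 107 genes was -0.07 before and -0.01 after rescaling, against -0.05 and 0.00 over all genes.

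Among the other receptors, 3 of the 4 tested differed in rhythm, a test that called 27.5% of all genes. Adora1, the adenosine A1 receptor that lowers cAMP, peaked at ZT12.8 under NRF with an amplitude of 0.33 (adjusted p = 4.97e-07) and was not called rhythmic under DRF (0.04, adjusted p = 0.760), and the difference was called (adjusted p = 6.46e-06). Adra1d, the remaining alpha-1 receptor gene, peaked at ZT22.1 under NRF (adjusted p = 7.67e-05) and was not called under DRF (adjusted p = 0.280), with a difference in rhythm at an adjusted p of 0.000193. Its NRF peak lay on the other side of the day from that of Adra1a. Of 14 G protein subunits 1 differed in rhythm, Gnai1, an inhibitory subunit (adjusted p = 0.0275), with Gng5 next (0.0587). Of the 4 other cyclases tested only Adcy9 did (adjusted p = 0.00457), with Adcy7 next (0.0714). Mean levels of all 4 were called lower under DRF (24.3% of all genes), and of 1 after rescaling (7.51% of all genes).

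Of 14 other phosphodiesterases tested, 4 differed in rhythm, again against 27.5% of all genes. Pde3a, a major cAMP phosphodiesterase of heart muscle, was rhythmic under both regimens, with peaks at ZT4.29 under NRF and ZT24.0 under DRF. The peaks were 4.30 h apart (SE 0.681 h) and the rhythms differed (adjusted p = 3.92e-05). Pde7b was rhythmic under NRF alone by the single tests, and its rhythm differed (adjusted p = 0.00107). Among 22 cAMP effectors and anchors 6 differed. Pkia, an inhibitor of protein kinase A, peaked at ZT0.144 under NRF and ZT8.31 under DRF (adjusted p = 2.85e-06), and Akap7, an anchor of that kinase, at ZT9.83 under NRF, with no rhythm called under DRF (adjusted p = 0.0513) and a difference in rhythm at an adjusted p of 3.64e-05. Among 12 receptor kinases, arrestins and RGS proteins 2 differed, both RGS genes, whose products end G protein signals. Rgs2 peaked at ZT19.9 under DRF (amplitude 0.36, adjusted p = 0.000207) and was not called rhythmic under NRF (adjusted p = 0.209), and Rgs4 differed narrowly, at an adjusted p of 0.0480 that was 0.0773 with the atrial markers as a covariate.

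Downstream of the kinase, 8 of 20 substrates and phosphatase controls differed in rhythm, against 27.5% of all genes. Ppp2r5a, a regulatory subunit of protein phosphatase 2A, moved by 7.81 h (SE 1.29 h, adjusted p = 0.000336). Pln, phospholamban, the brake on the calcium pump of the sarcoplasmic reticulum, was abundant at 1076 ± 96.8 TPM under NRF and 1103 ± 101.9 TPM under DRF (SD, n = 28 each) and moved by -4.41 h (SE 1.30 h, adjusted p = 0.0132). In the Gq branch used by the alpha-1 receptors 2 of 13 genes differed, Prkd1 (adjusted p = 0.00127) and Prkca (0.0383), both protein kinases. Of 4 acetylcholine-gated and pacemaker channel genes tested 2 differed. Kcnj5, a subunit of the potassium channel that Chrm2 opens, had an amplitude of 0.44 under DRF with a peak at ZT6.31 (adjusted p = 2.84e-07) and was not called under NRF (adjusted p = 0.342). Hcn4, the main pacemaker channel, peaked at ZT20.0 under NRF and ZT6.32 under DRF, 10.3 h apart (SE 1.16 h). Kcnj5 and Hcn4 are richer in atrial or nodal tissue, and with the atrial markers as a covariate the differences in rhythm were still called for Kcnj5 (adjusted p = 1.85e-06) and Hcn4 (7.57e-05).

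Not all of these pathway calls were stable. The difference in rhythm was kept in every alternative that tested it for Adora1, Adra1d, Pde3a, Pde7b, Pkia, Akap7, Ppp2r5a, Kcnj5 and Hcn4. It was lost in 1 alternative each for Adcy9 (adjusted p = 0.0532 without ZT16), Rgs2 (0.0602 without replicate 4) and Prkd1 (0.0546 without replicate 3). It was lost in 6 of 23 alternatives for Gnai1, 8 for Pln, with rescaling among them (adjusted p = 0.139), 11 for Prkca and 15 for Rgs4.

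**Figure D5:**
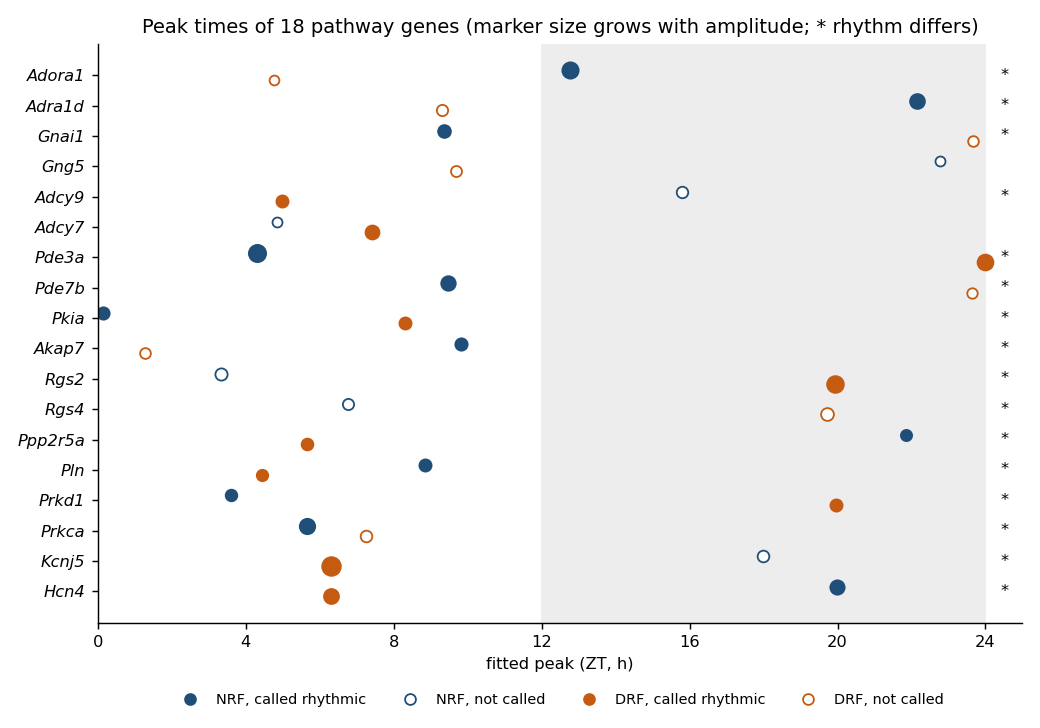
Fitted peak time (x axis, ZT in hours) of 18 pathway genes under NRF (blue) and DRF (orange), 2 from each of the 9 lists. Filled points were called rhythmic, point size grows with amplitude, and a star marks a difference in rhythm with an adjusted p under 0.05, as in Pde3a, Pkia and Hcn4. Gng5 and Adcy7 have no star.

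Genes of other cell types moved with the regimens as well. Of 6 endothelial markers 5 were lower under DRF in mean level, of 6 fibroblast markers 4, of 6 smooth muscle and pericyte markers 4 and of 5 macrophage markers 3, where 24.3% of all genes were lower. After rescaling 2 in each of these lists were lower, against 7.51% of all genes. Of 7 atrial markers only Bmp10 was called, as higher under DRF, and none after rescaling. Bmp10 is a low gene (median 0.205 TPM). All 7 had a higher mean under DRF, by 0.43 to 1.58, with adjusted p of 0.0458 to 0.105 by limma. Dbh, the enzyme that makes noradrenaline in sympathetic nerves, was higher under DRF by 0.32 (adjusted p = 0.000796). Neither red blood cell genes (0 of 5) nor adipocyte markers (0 of 4 tested) were called. The part of these lists in the results above was not tested, apart from the atrial covariate.

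The genes whose 14 group means of log2(TPM + 1) were most like those of each member are given as a description, since all share the same libraries. For Adra1a they were Gabarapl1 (Pearson r = 0.942), which takes part in autophagy, Arhgap20 (0.915) and Mapk1ip1 (0.914). For Adra1b they were 1700003E16Rik (0.967), Slc22a3 (0.966), a transporter of organic cations that include noradrenaline, and Thra (0.946), a thyroid hormone receptor. The highest values for the other members were lower, at 0.911 for Adcy5 (Fndc5, then Obsl1 and Mfsd8), 0.867 for Adrb1 (Zfp280b, then Zfp870 and Ado), 0.849 for Pde4d (Ncor1, then Lgr4 and Gm16001), 0.838 for Adcy6 (Serac1, then Mafg and Axin2) and 0.835 for Chrm2 (Gm40652, then Pccb and Epha7).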

How the data were processed

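PolyA RNA-seq values for 22864 genes in 56 heart libraries were deposited by the authors as TPM. Per the labels, HISAT2 2.0.5, featureCounts 1.5.0-p3 and build mm10 were used, while annotation and use of strand are not given in the sources used here. The deposited values are in another unit than their name, a library constant multiplied by the log of 1 plus scaled reads and divided by exon length. Whole reads were recovered with exon lengths of GENCODE M21 (GRCm38), and of 1.1924e+06 values below 30000 reads, 99.9996% lay within 0.1 of a whole number. Lengths of 831 genes were searched for, 3 genes were left out, and 0 pairs of libraries were identical. Linear TPM was then recomputed, and the planned tests were kept.

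The 13893 genes whose mean reached 1 TPM were tested on log2(TPM + 1), which understates changes of low genes, with limma 3.58.1 in R 4.3.3 (eBayes with trend, Benjamini-Hochberg over all genes tested, adjusted p under 0.05). The harmonic fit stood in for MetaCycle and CircaCompare, which the study used. Intervals are 95% normal intervals, and PCR copies cannot be told from molecules. The 7 members, the 9 gene lists, the markers and the motifs were chosen with earlier results of these data known. From each list the 2 genes with the smallest adjusted p for a difference in rhythm are named, and for each member the 3 most alike. Figures were drawn with matplotlib. Fits and read recovery were tested on simulated data. Alternatives covered pseudocount, filter, scaling, limma-voom on recovered reads, a replicate block, an atrial covariate, other curves and left-out libraries. The fits without 2 libraries at odds with their labels, and those leaving out each library from whole-day tests, were chosen after the data were seen. Mice sharing a replicate number are not said to be paired, and deviations of the 28 same-numbered pairs of libraries correlated at -0.179 to 0.115. The genes Chrm1, Adcy10 and Th were not analysed here.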

Additional observations from a re-analysis of the deposited data

Results flagged for a closer look

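In 98 groups of 4 libraries, 14 for each of the 7 genes, 6 held a library far from the other three by Dixon's test at its 95% critical value, about the 1 in 20 that chance gives. Adrb1 had 3 of them. DRF ZT4 replicate 1, at 27.6 TPM, was above the others of its group (19.4 to 20.7 TPM). NRF ZT8 replicate 4, at 27.5 TPM, was above the others (22.3 to 23.1 TPM), and DRF ZT24 replicate 2, at 16.1 TPM, was below them (19.2 to 19.8 TPM). Adra1b NRF ZT16 replicate 4 was at 21.6 TPM against 17.5 to 17.9 TPM. Adcy5 NRF ZT24 replicate 1 was at 33.5 TPM against 34.2 TPM in each of the others, a gap that is flagged only because those lie so close together. Pde4d NRF ZT4 replicate 1 was at 3.17 TPM against 3.65 to 3.75 TPM. The first of these libraries is also the DRF ZT4 library that correlated best with the NRF ZT8 group.

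Rhythms that differed between the regimens by the interaction test were those of Adra1a (adjusted p = 5.71e-08) and Adcy6 (0.0454) with the clocks lined up by light. With the NRF clock moved by 12 h they were those of Adra1b (adjusted p = 8.97e-12) and Adcy6 (0.0401), all by limma over the genes tested.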

How the results depend on the processing

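Of 84 results for single members, 65 stayed on their side of the threshold in every alternative that gave a value. The rhythms of Adra1a and Adra1b under both regimens, the Adra1a difference by light, the Adra1b difference by food, the Adra1a calls at ZT0, ZT20 and ZT24 and the Adcy5 call at ZT0 were kept throughout, and no called value reversed. The filter at 5 TPM drops Adra1a and Pde4d, so it gave no value for them. The number of all genes called also moved between alternatives. Rhythm under NRF was called in 5166 genes with the main settings and in 2812 to 6451 across the alternatives. Rhythm under DRF gave 4478 (2296 to 4571) and the difference in rhythm 3825 (1843 to 4594). The difference from inversion gave 5736 (3731 to 6251), the mean level 3607 (1178 to 4114) and ZT24 1227 (198 to 2163). Whether the members moved more than all genes was not tested. Counts of called members moved as follows. Rhythm under NRF (3 members) gave 4 with rescaling, mitochondrial genes left out of the sum, limma-voom, the deposited values and without ZT8, and 2 with the 5 TPM filter, 24-h and 12-h harmonics, free ZT means, a threshold of 0.01 and without ZT16. Without ZT4 it stayed at 3, with Adcy5 in place of Adcy6. Rhythm under DRF (2) gave 1 with the 5 TPM filter, 3 without ZT0 (adding Adcy6) or ZT4 (adding Chrm2) and 4 with free ZT means. The difference in rhythm (2) gave 1 with no filter, the 5 TPM filter, mitochondrial genes left out of the sum, the deposited values, 24-h and 12-h harmonics, a threshold of 0.01, and without ZT4, ZT12, ZT20 or ZT24. With rescaling and with limma-voom the count was 2, but Adcy5 was called in place of Adcy6. The difference from a 12-h inversion (2) gave 1 with no filter, a threshold of 0.01, and without ZT16 or ZT20, and 3 without ZT0. Without ZT4 Chrm2, and with both harmonics Adra1a, was called in place of Adcy6. The mean level (1) gave 0 with no filter, the replicate block, a threshold of 0.01, and without ZT0, ZT8 or ZT24, 2 without ZT12, 3 after rescaling (Chrm2, Adra1a and Adra1b) and 4 without ZT4. It stayed at 1 with the atrial covariate and without ZT16, but with Adrb1 and Adra1a, in that order, in place of Chrm2. The contrasts at single ZTs (5) gave 1 with the 5 TPM filter, 4 with the deposited values and a threshold of 0.01, 7 with limma-voom (adding Adrb1 at ZT8 and Adcy6 at ZT24) and 8 without the 2 libraries at odds with their labels. After rescaling Chrm2 at ZT24 was called in place of Pde4d at ZT16. ZT24 against ZT0 (0) gave 1 after rescaling, Adcy5 under DRF. The cause of these moves was not tested, apart from the genes the filter removes.

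Leaving out a replicate number or a library gave 2 to 4 members for rhythm under NRF, 2 for rhythm under DRF, 1 to 2 for each of the difference in rhythm and the difference from inversion, 0 to 2 for the mean level, 4 to 6 for the contrasts at single ZTs and 0 for ZT24 against ZT0. Same-numbered libraries of the regimens at the same ZT did not deviate together, with 1 of 28 correlations above 0.1. This check looks at no other form of pairing or batch, and whether the numbers pair the samples is not stated. With the replicate block the Chrm2 mean level missed the threshold (adjusted p = 0.0504) and no other call of a member changed. Adra1a, Pde4d and Adrb1 had the fewest reads, with means of 721, 799 and 820 in a library.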
